A study of Mus musculus with 6 samples.

Results

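The genes described are the integrin and laminin subunits: gene symbols in the count table that name an integrin alpha or beta subunit (Itga or Itgb) or a laminin alpha, beta or gamma chain (Lama, Lamb or Lamc, each with a number). They were chosen by symbol, with earlier results of these data known. The members reported here number 36 of the 24421 genes in the table, 26 of them integrin subunits (18 alpha and 8 beta) and 10 laminin chains. RNA-seq was performed on blood endothelial cells (BECs) and lymphatic endothelial cells (LECs) of the mouse in which Dot1l, the enzyme that methylates histone H3 at lysine 79, was deleted or overexpressed. Each condition has 1 library, so no spread between replicates is known, no p-value is given, and every ratio compares 2 libraries.

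The skin libraries came from E15.5 embryos. Cont BECs were Tie2-Cre(−); Dot1l 2f/2f, labelled wild type, and cKO BECs were Tie2-Cre(+); Dot1l 2f/2f, labelled Dot1l KO, so the controls carried the floxed alleles too. Tie2-Cre is active in endothelium and also in part of the blood lineage. The cells had been sorted as positive for CD31 and negative for F4/80, CD45 and Lyve1, and the RNA of 2 to 3 embryos was pooled in a library. The cultured libraries were a yolk sac BEC line and embryonic dermal LECs, each with an empty lentivirus (Cont) or with a lentivirus carrying dCas9 fused to the VP64 activator and guide RNAs to the Dot1l promoter (OE-BECs, OE-LECs). GFP-positive cells were sorted, and 2 to 3 flasks were pooled in a library. Each line is 1 culture source, so line and cell type cannot be told apart.

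Integrins are receptors made of 1 alpha and 1 beta subunit that tie the cytoskeleton to the extracellular matrix or to other cells, and the pairing sets the ligand. Laminins are trimers of an alpha, a beta and a gamma chain that form the scaffold of basement membranes. In vessels, the laminins built on the alpha chains Lama4 and Lama5 underlie the endothelium, and endothelial cells grip them through Itga6 and Itga3 paired with Itgb1.

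In skin the control library held 8863349 reads and the one labelled cKO 11084686. In culture the control and overexpressing BEC libraries held 17685615 and 13933651 reads, and the LEC libraries 26117161 and 31032461. The members together took from 0.574% to 0.790% of the reads, and 34, 36, 33, 29, 31 and 31 of them were above 3 reads, the floor used here, in that order of libraries. Whole-gene Dot1l reads were 762 and 944 in the skin pair, a log2 ratio of -0.07 (95% counting interval -0.21 to 0.07). This count covers the whole gene and does not show the deletion, so the second is called the library labelled cKO. The study reports an RT-qPCR check of the knockout in these BECs, without replicates. Dot1l was higher in both OE libraries, with 1972 and 4208 reads in BECs (1.48) and 2490 and 6720 in LECs (1.20). All 12 blood endothelial markers were above the floor in every library. Both cultured LEC libraries had 0 reads of Prox1, Pdpn and Ccl21a, which define lymphatic endothelium, while Lyve1 was at 1998 and 1962 CPM (reads per 1000000 reads in that library), against 604 and 1061 CPM in the cultured BEC libraries. Cultured Cont BECs had 0 reads of the same 3 genes, and OE-BECs had 0 of Prox1 and Ccl21a. Of 8 lymphatic endothelial genes, 3 were above the floor in each LEC library, and 4 and 3 in the cultured BEC libraries. Of the 3 with 10 or more reads in the control lines, only Lyve1 was higher in Cont LECs. The skin libraries held Lyve1 at 1027 and 1801 CPM, Ptprc (CD45) at 136 and 211 CPM, Adgre1 (F4/80) at 194 and 308 CPM and the mast cell protease Cpa3 at 1238 and 1733 CPM, although the sort was negative for the first 3. In such bulk samples, fewer cells of a type and less RNA per cell cannot be told apart.

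The first question was which subunits each library carried. Levels of different genes are compared as CPM per kilobase of exon. Itgb1, the beta subunit shared by most matrix integrins (chromosome 8, 128685654 to 128733200, plus strand, mm10), led the beta subunits everywhere, with 346, 311, 294, 232, 348 and 359 CPM per kilobase in the 6 libraries in the order above. It made up 92.1% and 88.8% of the summed beta subunit level in skin and from 62.8% to 74.9% in culture. Most of the remainder in culture was Itgb3, the partner of Itgav in the receptor for RGD motifs of vitronectin and fibronectin (chromosome 11, 104608000 to 104670476, plus strand). Itgb3 had 210 and 134 reads in skin against 16516, 8654, 14855 and 18440 in culture.

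**Figure D1:**
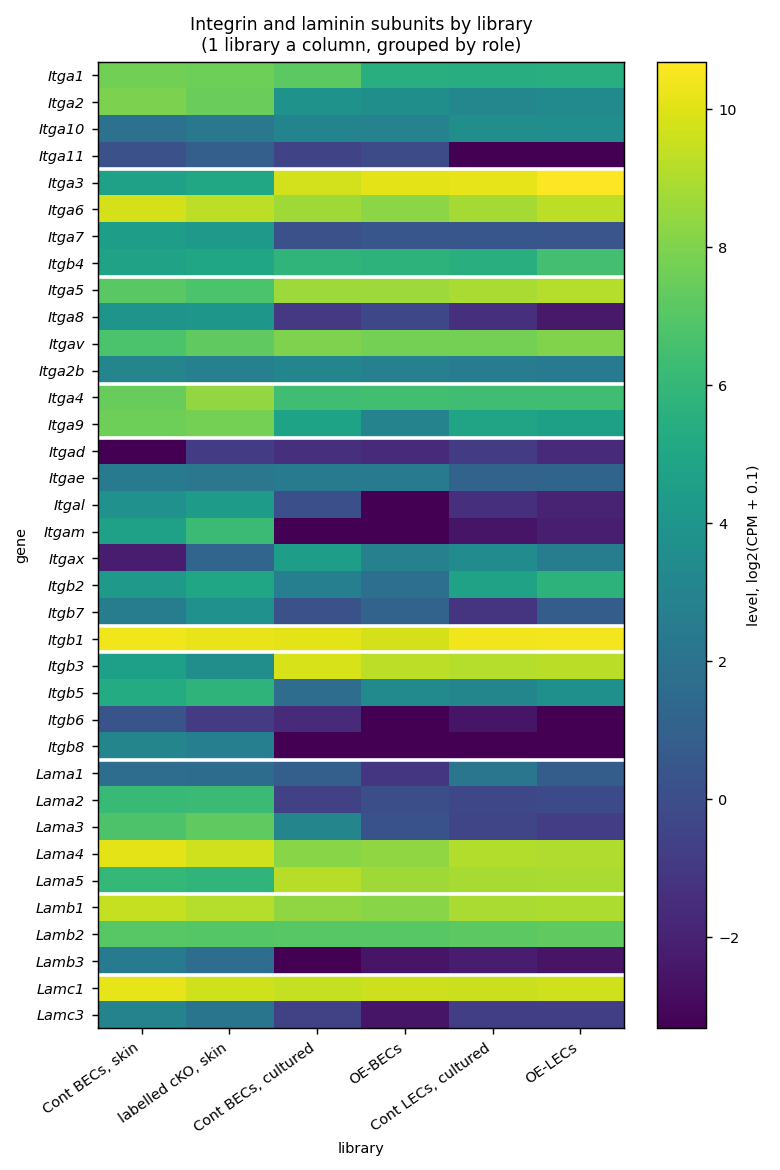
Level of each of the 36 members (rows, grouped by role with white lines between groups) in each of the 6 libraries (columns), as log2(CPM + 0.1), with 1 library a column. Itgb1 and Lamc1 are bright in all 6 columns, Itga3, Itgb3 and Lama5 are bright only in the 4 cultured columns, and the dark cells are genes with few or 0 reads.

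Among the alpha subunits, skin and culture had different leaders. Itga6, a laminin receptor (chromosome 2, 71745616 to 71858416, plus strand), stood at 202 and 144 CPM per kilobase in skin, 54.4% and 42.9% of the alpha subunit level. In culture Itga3, which also binds laminins (chromosome 11, 95044474 to 95076801, minus strand), led with 164, 210, 220 and 314 CPM per kilobase, from 38.7% to 49.4% of the total. The level of Itga6 over that of Itga3 was therefore 41.5 and 23.1 in skin and between 0.33 and 0.59 in the cultured libraries. Itga6 and Itga5, the fibronectin receptor, followed in culture, Itga5 at 89.6 to 130 CPM per kilobase against 31.3 and 24.1 in skin.

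The laminin alpha chains also differed between skin and culture, though Lama4 led in all libraries except cultured Cont BECs. In skin, Lama4 (chromosome 10, 38965515 to 39110188, plus strand) made up 88.5% and 83.4% of the laminin alpha level and Lama5 (chromosome 2, 180176373 to 180225859, minus strand) 2.74% and 3.04%. In Cont BECs in culture the chains were near equal, at 48.2% Lama4 and 50.9% Lama5. Lama4 over Lama5 was 32.3 and 27.4 in skin, 0.95 and 1.47 in the control and OE libraries of cultured BECs, and 2.17 and 2.03 in those of LECs. Lamb1 made up from 68.2% to 83.3% of the beta level, with Lamb2 most of the rest. Lamc1 stood at 90.9 to 154 CPM per kilobase of exons, and Lamc3 at 1.31 or less.

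**Figure D2:**
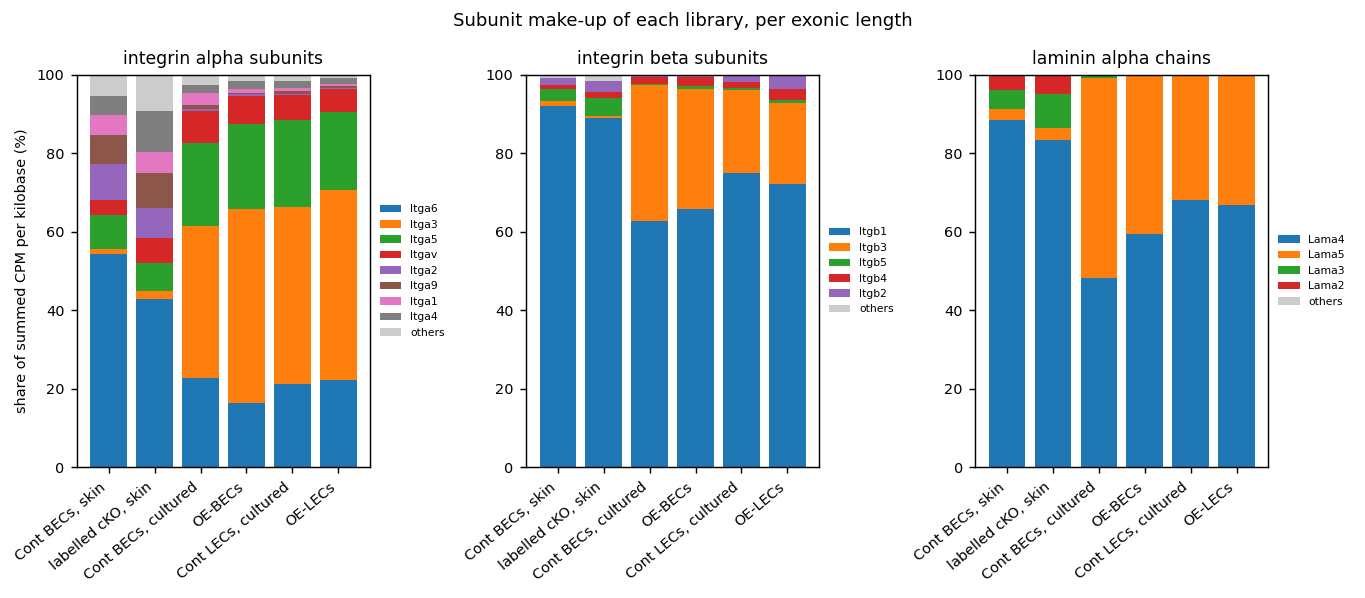
Share of the summed CPM per kilobase of exon (vertical axis, %) taken by each integrin alpha subunit, integrin beta subunit and laminin alpha chain in each of the 6 libraries; grey is the sum of the members not named in the key. Itga6, Itgb1 and Lama4 take the largest shares of the skin bars, and Itga3, Itgb3 and Lama5 take from 38.7% to 49.4%, from 20.6% to 34.5% and from 31.4% to 50.9% of the cultured bars.

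Of the 35 members that reached 1 CPM in some library, 3 lay more than 3-fold higher in all 4 cultured libraries than in either skin library, against 3.54% of the 15261 genes that reached that level. These were Itga3, Itgb3 and Lama5, with gaps between the nearest libraries of 26.4-fold, 24.0-fold and 6.58-fold. The opposite gap was seen for 12 members, where 19.3% of all genes lay higher in skin. Lama2, the alpha chain of muscle and nerve basement membranes, had 649 and 834 reads in skin and 10, 13, 19 and 24 in culture, a gap of 78.5-fold in CPM. Itgb8, a partner of Itgav, had 74 and 72 reads in skin and 0 in all 4 cultured libraries. Itga2, a collagen receptor, and Itga7, a laminin receptor best known from muscle, had gaps of 12.4-fold and 15.3-fold. Itga8, Itga9, Itgal, Itgam, Itgb5, Lama3, Lamb3 and Lamc3 were the other members higher in skin. Skin libraries also held markers of other cell types that cultured libraries lacked: 10 fibroblast genes summed to 2560 and 1898 CPM in skin and to between 2.83 and 20.5 CPM in culture, and 14 keratinocyte genes were all above the floor in skin, while 9 of them, Krt5 and Krt14 included, had 0 reads in cultured Cont BECs. Tissue, line and sort differ together here and cannot be told apart.

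The second question was what deletion of Dot1l went with in skin BECs. The study's rule for this pair asks for a normalized count (reads divided by the library's size factor) of at least 5 in the higher library and more than 3 times the lower. By that rule 1 of the 35 members that reached the minimum was higher in the library labelled cKO, beside 5.17% of all genes, and 0 were lower, beside 2.41%. At a normalized count of at least 100, 0 of 25 members were past it in either direction, beside 1.19% of all genes higher and 0.509% lower. The median log2 ratio of the 35 members with 10 or more reads in the pair was -0.14, against 0.00 over 15554 genes, with 15 members above 0 and 20 below. For 23 members the counting interval lay to 1 side of 0, above it for 10 and below it for 13, beside 23.1% and 25.4% of the 15554 genes.

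The 7 leukocyte integrin subunits stood highest. Together they summed to 70.0 CPM in Cont BECs and 147 CPM in the library labelled cKO, and 5 of the 6 with 10 or more reads had a ratio above 0. Itgax, the alpha subunit CD11c (chromosome 7, 128129547 to 128150657, plus strand), had 1 read and 25 reads, a log2 ratio of 4.27 (1.66 to 9.63), and was the only member past the rule. Itgam, the alpha subunit CD11b of macrophages and other myeloid cells (chromosome 7, 128062640 to 128118491, plus strand), had 233 and 833 reads, 1.46 (1.25 to 1.68). Its 2.75-fold ratio was under the 3-fold limit, and 70.0% of its exonic bases also lie in the same-strand gene model Gm49368, which is not a row of the count table. Itgb7, a lymphocyte and mast cell subunit, had 53 and 152 reads, 1.14 (0.68 to 1.62). Itgb2, the common beta subunit of leukocytes, had 167 and 329 reads (0.60), and Itgal, its partner in LFA-1, had 119 and 231 (0.58). Itgad had 0 and 5 reads, at least 1.28-fold higher against the floor, with an interval that reaches down to -0.50. Itgae, found on mucosal lymphocytes, had 47 and 52 reads, and its interval held 0 (-0.83 to 0.37). Itgam, Itgax and Itgad are close relatives of each other, and whether reads were shared between them was not tested.

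Macrophage, leukocyte and mast cell markers were mostly higher too, as were 9 of 9 Schwann and neural crest genes (median log2 ratio 0.66). Of the 14 macrophage and leukocyte markers, 13 had ratios above 0, their sum was 4014 and 6390 CPM, and their median log2 ratio was 0.59. Of 9 mast cell genes 7 were higher (2671 and 3825 CPM, median 0.43), with Mrgprb1 lower past the rule (191 and 4 reads). The 9 megakaryocyte and platelet genes were mixed. They summed to 168 and 304 CPM, and 4 of the 7 with 10 or more reads were above 0 (median 0.14). Gp1bb was lower past the rule. None of the defining macrophage markers was at 0 in either skin library. The part of these cells in the integrin values was not tested. Itga4, which pairs with Itgb1 or Itgb7 and binds VCAM1 and fibronectin (chromosome 2, 79255426 to 79333123, plus strand), is carried by blood cells as well as by endothelium. It had 1523 and 3798 reads, 0.94 (0.85 to 1.03), and 11.5% of its exonic bases overlap Cerkl on the other strand. Itga9, its nearest relative, had 1738 and 2364 reads, 0.07 (-0.02 to 0.16).

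The subunits that led the skin levels were lower in the library labelled cKO, and so was Itgb3. Itgb3 had 210 and 134 reads, -1.03 (-1.35 to -0.71). The chains of the main endothelial laminin summed to 2965 and 2198 CPM: Lama4 had 9660 and 9201 reads (-0.45), Lamb1 6219 and 6096 (-0.41) and Lamc1 10399 and 9063 (-0.58). Itga6 had 7813 and 6937 reads, -0.55 (-0.60 to -0.50). Itga2 (-0.52), Itga5 (-0.43), Itga7 (-0.32), Lama5 (-0.21), Itgb1 (-0.21) and Itga1 (-0.14) were lower as well by amounts beyond counting error, as were Lamb3 (45 and 34 reads) and Lamc3 (68 and 48 reads). The 12 blood endothelial marker genes went from 6649 to 4204 CPM, 11 of 12 were lower, and their median log2 ratio was -0.70. Their part in these values was not tested.

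Of the remaining members of the skin pair, 4 were higher beyond counting error in the library labelled cKO. Itgav was at 925 and 1692 reads (0.49), Itgb5, one of its partners, at 348 and 616 (0.45), Itga3 at 227 and 362 (0.30) and Lama3, the alpha chain of epithelial laminin, at 964 and 1704 (0.44), all with intervals above 0. The 14 keratinocyte genes, some of which other cells express too, summed to 1904 and 1741 CPM in skin and to between 525 and 1723 CPM in culture. Their median log2 ratio in skin was 0.07, and Krt1 (33 and 254 reads) and Krt10 (51 and 263) were past the rule. Intervals held 0 for Itga8, Itga11, Itga2b, Itga10 (34.5% of whose exonic bases lie in the same-strand gene model Gm42957), Itgb4, Itgb6, Itgb8, Lama1, Lama2 and Lamb2 too. Of the other marker lists, 2 of the 7 lymphatic endothelial genes with 10 or more reads (median -0.37) and 9 of 9 Schwann and neural crest genes (0.66) were above 0, as were 2 of 10 fibroblast (-0.44), 2 of 10 pericyte and smooth muscle (-0.38) and 2 of the 8 skeletal muscle genes with 10 or more reads (-0.68).

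**Figure D3:**
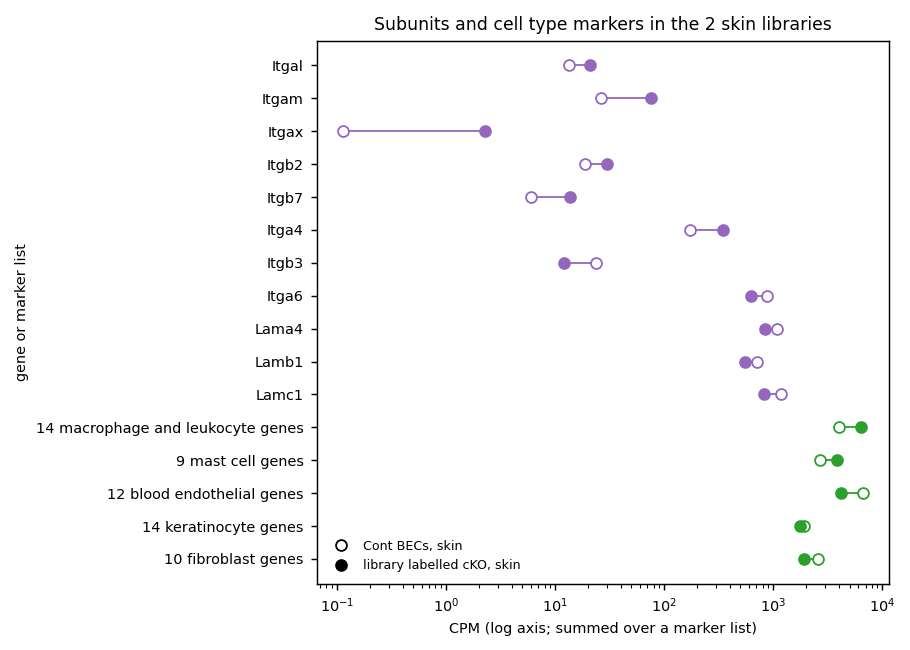
Level in the 2 skin libraries (horizontal log axis, CPM) of 11 members, and the summed CPM of 5 marker lists, with open circles for Cont BECs and filled circles for the library labelled cKO. Itgal, Itgam, Itgax, Itgb2, Itgb7, Itga4 and the macrophage and mast cell lists lie to the right in the library labelled cKO. Itgb3, Itga6, Lama4, Lamb1, Lamc1 and the blood endothelial, keratinocyte and fibroblast lists lie to the left. The leukocyte subunits Itgad and Itgae are not drawn, and Itgae stood at 5.30 and 4.69 CPM.

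The third question was what Dot1l overexpression went with in cultured BECs. Here the minimum of the study's rule is a normalized count of 3. Of the 33 members that reached it, 1 was higher in OE-BECs, beside 8.02% of all genes, and 8 were lower, beside 5.27%. With a normalized count of at least 100 in the higher library, 1 of 21 members was higher (0.527% of all genes) and 4 were lower, 19.0% of the 21 beside 1.55% of 9867 genes. The median over the 31 members with 10 or more reads was -0.11, against -0.01 over 13396 genes, so the group as a whole did not lie far from 0. Counting intervals lay above 0 for 6 of the 31 and below it for 14, beside 27.4% and 30% of the 13396 genes. Rn45s, a ribosomal RNA gene, took 5.91% of the control reads and 10.9% of the OE-BEC reads, and the ratios rest on size factors rather than on totals.

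The 4 lower members with at least 100 normalized counts were Itga1, Itga9, Itgax and Lama3. Itga1, the collagen IV receptor subunit (chromosome 13, 114953096 to 115101964, minus strand), had 2564 reads without and 638 with Dot1l overexpression, -1.62 (-1.75 to -1.50) or 3.08-fold lower. Scaled by totals without Rn45s its log2 ratio was -1.58, and it was then just under the 3-fold limit. Itga9, which binds tenascin-C and other ligands with Itgb1 (chromosome 9, 118606690 to 118901003, plus strand), had 500 and 106 reads, -1.86 (-2.17 to -1.55) or 3.62-fold lower. Itgax had 388 and 95 reads, -1.65 (-1.99 to -1.32) or 3.13-fold lower. Itgam had 0 reads in both libraries of this line. Of the 14 macrophage and leukocyte markers, 5 were above the floor in each library and 6 had 0 reads in both, Ptprc, Adgre1, C1qa, C1qb, C1qc and Laptm5. The list summed to 68.0 and 36.0 CPM, most of it Cd68 (1093 and 448 reads, -0.90), the median of the 5 markers with 10 or more reads was -0.90, and Lyz2 (40 and 7 reads) was lower past the rule. The part of this in the ratio of Itgax was not tested. Lama3 had 145 and 15 reads, -2.89 (-3.76 to -2.12) or 7.41-fold lower.

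The other 4 had fewer reads. Lama1, a chain of early embryonic basement membranes, had 32 and 5 reads, -2.30 (-4.01 to -0.92). Lamc3 had 10 reads and 1 read, a log2 ratio of -2.94 with a wide interval (-8.38 to -0.13). Itgal had 17 and 0 reads, at least 4.35-fold lower against the floor. Itgb6, a partner of Itgav in epithelia, had 4 and 0 reads, and its interval reached up to 0.98.

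Itgb5 was past the rule in the other direction. Itgb5, which pairs with Itgav and binds vitronectin (chromosome 16, 33829665 to 33949338, plus strand), had 55 and 137 reads, 1.70 (1.24 to 2.18) or 3.25-fold higher. Itgb7 had 18 and 29 reads, 1.07 (0.17 to 2.01). Of the 9 mast cell genes, Hdc (72 and 17 reads) was lower past the rule in this pair. Lamb3 had 0 reads and 1 read.

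The abundant subunits differed by less. Itgb3 had 16516 and 8654 reads, -0.55 (-0.59 to -0.51), Itgb1 19823 and 12348 (-0.30), Itga6 7399 and 4252 (-0.42), Lama5 10400 and 5836 (-0.45), Itgav 4389 and 3003 (-0.16) and Lamb1 5753 and 4094 (-0.11). Itga3 had 15236 and 15385 reads, 0.40 (0.36 to 0.43), Lamc1 12256 and 10798 (0.20), Lama4 5228 and 4554 (0.18) and Itga5 6941 and 5617 (0.08). Itgb2 was at 114 and 47 reads, -0.90 (-1.42 to -0.39). These intervals cover counting error only. Intervals of Itga2, Itga4, Itga7, Itga8, Itga10, Itga11, Itga2b, Itgae, Itgb4, Lama2 and Lamb2 held 0. Beside these values, 0 of 12 blood endothelial markers had a ratio above 0 in OE-BECs (median -0.56), and Flt1 (5099 and 888 reads), Cldn5 (12735 and 2950) and Vwf (3606 and 610) were lower past the rule. The part of this in the subunits' ratios was not tested.

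**Figure D4:**
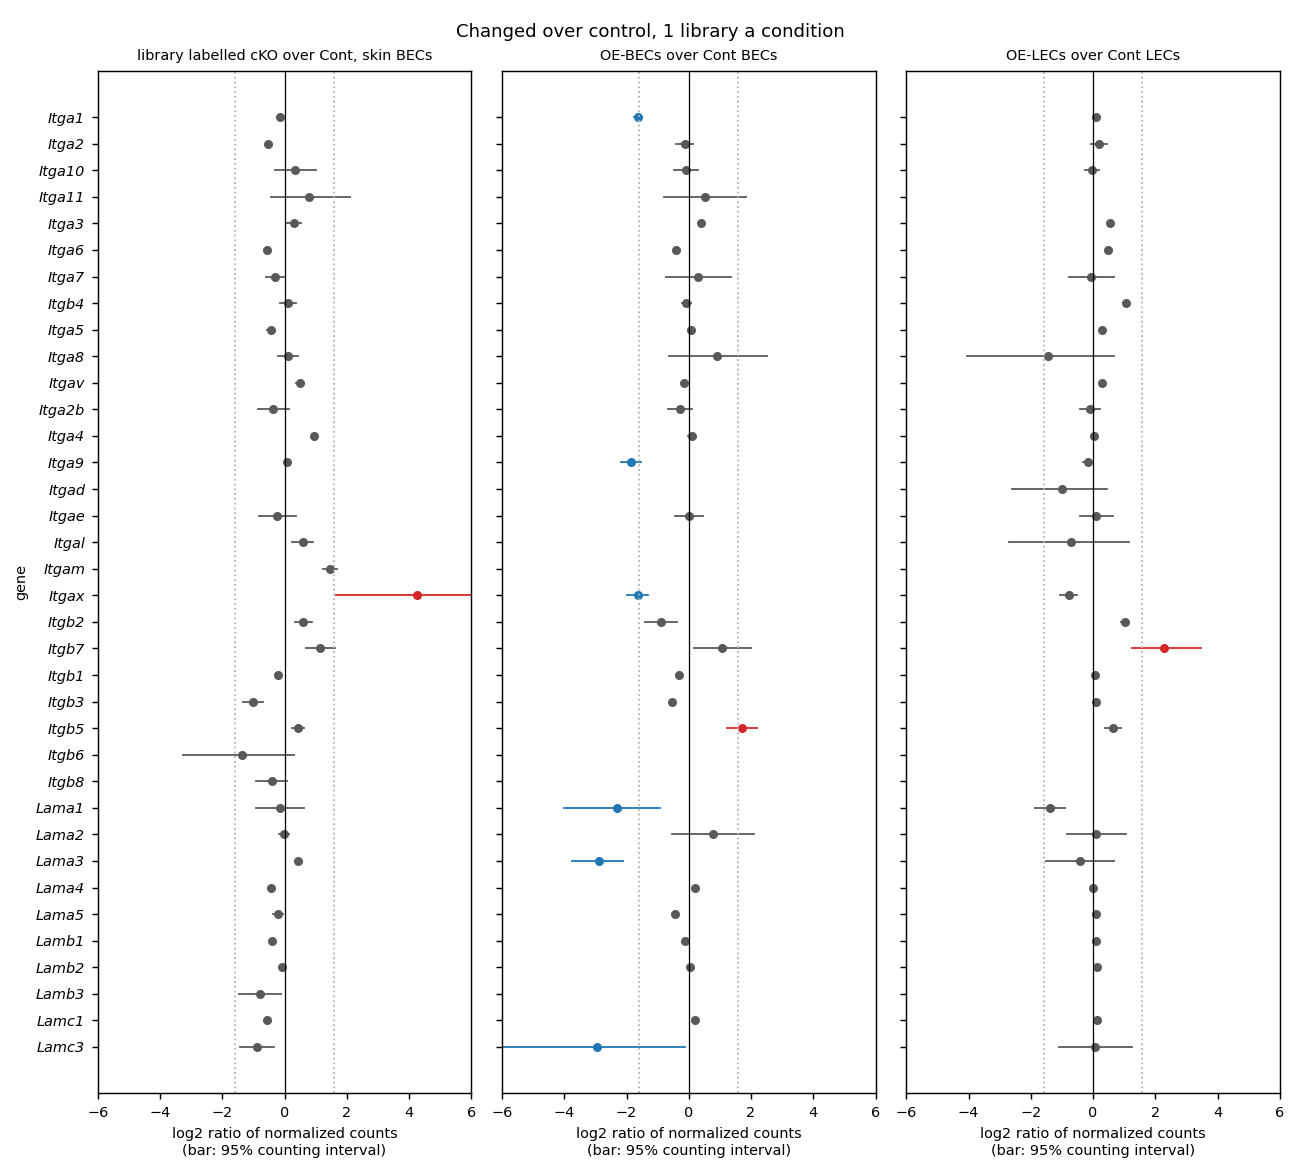
Log2 ratio of normalized counts, changed over control, of each member (rows) in the 3 pairs of libraries (panels), with bars for the 95% counting interval, dotted lines at a 3-fold ratio, red for higher and blue for lower past the study's rule. Members with fewer than 10 reads in a pair or with 0 reads in 1 library are not drawn, and the bars of Itgax in the left panel and Lamc3 in the middle panel run past the axis. Most points lie near 0, and the middle panel (OE-BECs) holds 7 of the 9 coloured points.

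The sequences before the starts of 4 members past the rule are shown because they are the members called in the cultured pairs with the most reads, or the 1 called in LECs, that have a start in the reference table at or near the annotated gene start. Each is the 250 bases before the start, from RefSeq on GRCm38.p6 (mm10), written 5′ to 3′ on the strand of the gene, with CG dinucleotides in capitals.
Itga1, chr13:115101965-115102214, minus strand: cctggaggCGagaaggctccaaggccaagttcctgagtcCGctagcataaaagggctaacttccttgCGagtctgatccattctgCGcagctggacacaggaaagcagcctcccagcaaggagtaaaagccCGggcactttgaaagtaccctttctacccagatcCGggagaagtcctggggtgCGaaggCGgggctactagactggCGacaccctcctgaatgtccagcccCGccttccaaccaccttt
Itgax, chr7:128129300-128129549, plus strand: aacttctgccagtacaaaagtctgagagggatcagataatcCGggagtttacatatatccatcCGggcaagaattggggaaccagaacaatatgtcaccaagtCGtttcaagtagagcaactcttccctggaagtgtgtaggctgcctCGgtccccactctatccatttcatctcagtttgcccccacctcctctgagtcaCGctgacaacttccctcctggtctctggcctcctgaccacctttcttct
Itgb5, chr16:33829415-33829664, plus strand: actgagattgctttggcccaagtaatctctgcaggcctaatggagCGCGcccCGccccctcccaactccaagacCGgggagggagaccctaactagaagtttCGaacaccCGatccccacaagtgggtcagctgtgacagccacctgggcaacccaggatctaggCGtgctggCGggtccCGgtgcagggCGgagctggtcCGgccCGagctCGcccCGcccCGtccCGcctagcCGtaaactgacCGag
Itgb7, chr15:102231936-102232185, minus strand: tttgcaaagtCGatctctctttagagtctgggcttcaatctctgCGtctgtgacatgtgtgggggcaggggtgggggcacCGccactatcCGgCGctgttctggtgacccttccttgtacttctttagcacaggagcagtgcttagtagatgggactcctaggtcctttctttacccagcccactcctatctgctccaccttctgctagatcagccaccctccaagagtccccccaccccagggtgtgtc

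CG dinucleotides numbered 10 before Itga1, 5 before Itgax, 18 before Itgb5 and 5 before Itgb7, where the median over 32851 RefSeq windows of this length was 6 with quartiles of 2 and 16. Both strands were scanned for TGANTCA, a pattern wider than the AP-1 motif because N stands for any base. It was found in 1 of the 26 windows that 23 members have, that of Itgax from position 195, and in 6.75% of all windows. The match is of letters only. RefSeq windows were found for 23 of the 36 members, and 13, Itga6, Itgb3 and Lama3 among them, are named only.

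The fourth question was what the same overexpression went with in cultured LECs. Of the 33 members that reached a normalized count of 3, 1 was higher past the rule in OE-LECs, beside 2.77% of all genes, and 0 were lower, beside 2.09%. At a normalized count of at least 100, 0 of 22 members were past it, beside 0.59% of all genes higher and 0.238% lower. The median over 31 members was 0.08, against 0.00 over 13028 genes, with 20 members above 0 and 11 below. Counting intervals lay above 0 for 14 members and below it for 3, beside 24.2% and 21.4% of all genes.

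Itgb7 was the member past the rule, with 9 and 51 reads, 2.27 (1.24 to 3.48) or 4.83-fold higher. Of the 9 mast cell genes, Hdc (9 and 34 reads) was higher past the rule in the same pair, and 5 had 0 reads in both libraries. In the BEC pair, where Itgb7 had 18 and 29 reads, Hdc was lower past the rule (72 and 17 reads). Next to Itgb7 in OE-LECs were members between 2-fold and 3-fold. Itgb4, the partner of Itga6 in hemidesmosomes (chromosome 11, 115974709 to 116008412, plus strand), had 1143 and 2787 reads, 1.06 (0.96 to 1.16). Itgb2 had 694 and 1642 reads, 1.01 (0.88 to 1.14). Beside it, 5 and 7 of the 14 macrophage and leukocyte markers were above the floor, with a sum of 96.7 and 84.6 CPM. Of the 6 markers with 10 or more reads 4 had ratios above 0, with a median of 0.33, and Laptm5 (1 read and 4 reads) was higher past the rule. Adgre1, Fcgr1, C1qa, C1qb, C1qc and Tyrobp had 0 reads in both LEC libraries. The part of these markers in the ratio of Itgb2 was not tested. Lama1 had 115 and 52 reads, -1.38 (-1.88 to -0.89) or 2.60-fold lower.

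All 3 laminin-binding subunits with many reads were higher in OE-LECs: Itga3 had 30150 and 51275 reads, 0.54 (0.51 to 0.56), and Itga6 had 11846 and 19594, 0.50 (0.46 to 0.53), beside Itgb4. The summed level of the 4 laminin-binding subunits was 1653 and 2375 CPM. Itgb5 (219 and 400 reads, 0.64) was higher as well, and Itgax (276 and 189 reads, -0.78) and Itga9 (750 and 783 reads, -0.17) were lower. Itga5 and Itgav stood at 0.27 and 0.28, and Itgb1, Itgb3, Lama5, Lamb1, Lamb2 and Lamc1 between 0.06 and 0.13, all with intervals above 0. Lama4 was at 13949 and 16268 reads, -0.01 (-0.04 to 0.02). Intervals held 0 for Itga1, Itga2, Itga4, Itga7, Itga8, Itga10, Itga2b, Itgad, Itgae, Itgal, Lama2, Lama3 and Lamc3, and Itgam, Itgb6, Lamb3, Itga11 and Itgb8 had at most 4 reads in a library. Of the 12 blood endothelial markers, 1 had a ratio above 0 in OE-LECs (median -0.27), with Vwf lower past the rule (824 and 260 reads).

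The ratios of both lines can be set side by side, since the OE pairs share no library. For the 29 members with reads in all 4 libraries and 10 or more in each pair, the log2 ratio in OE-LECs minus that in OE-BECs lay above 0 beyond counting error for 14 members and below it for 3, beside 28.2% and 22.7% of 12542 genes. Past 1 in size were 5 and 1 of these, beside 4.78% and 3.15% of all genes. With 1 library a condition, this difference was not tested against replicate error. Itga1 had log2 ratios of -1.62 in BECs and 0.10 in LECs, a difference of 1.72 (1.55 to 1.89). Itga9 differed by 1.69 (1.35 to 2.02), Itgb2 by 1.91 (1.40 to 2.41), Itgb4 by 1.14 (0.97 to 1.30) and Lama3 by 2.48 (1.22 to 3.74), though Lama3 had 17 and 15 reads in the LEC libraries. Itgb5 differed the other way, by -1.06 (-1.57 to -0.55), and was higher in both OE libraries. Itga6, lower in OE-BECs and higher in OE-LECs, differed by 0.91 (0.85 to 0.98).

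**Figure D5:**
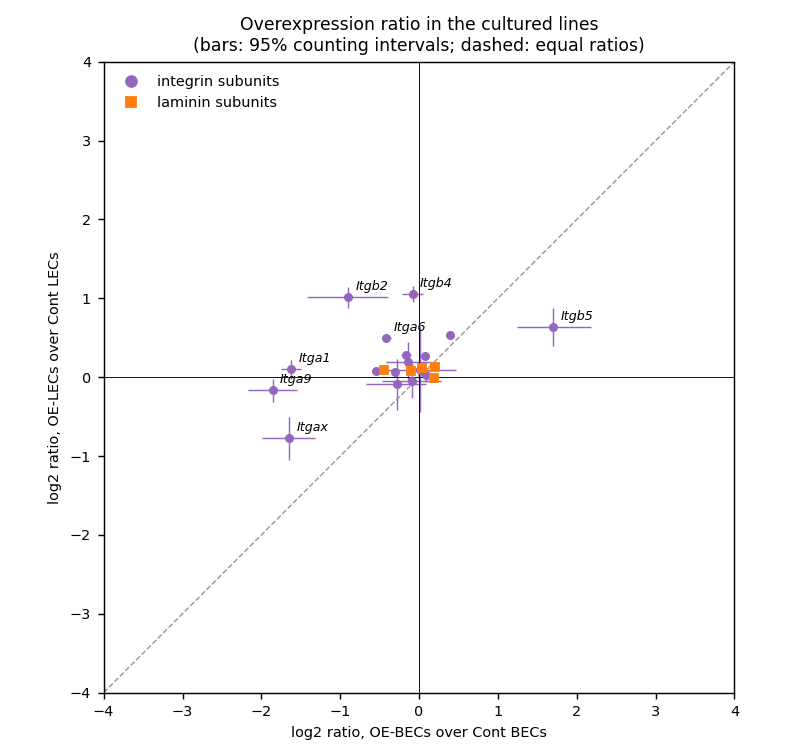
Log2 ratio in OE-BECs over Cont BECs (horizontal) against that in OE-LECs over Cont LECs (vertical) for the 22 members with at least 50 reads in each pair, circles for integrin and squares for laminin subunits, with 95% counting intervals and a dashed line of equal ratios. Itga1 and Itga9 lie far to the left near the middle height, Itgax at lower left, Itgb2 at upper left, and Itgb5 to the right.

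The control lines differed from each other before overexpression. Of 33 members, 1 was higher in Cont LECs than in Cont BECs by the rule used for the OE pairs, beside 4.12% of all genes, and 6 were lower, beside 13.1%. At a normalized count of at least 100, 1 of 23 members was higher and 2 were lower, beside 2.25% and 3.7% of all genes. Itga1 had 2564 reads in Cont BECs and 1103 in Cont LECs, 3.69-fold lower, and Lama3 145 and 17, 13.5-fold lower. Itgb2 had 114 and 694 reads, 3.84-fold higher. Itgb7 (18 and 9 reads), Itgal (17 and 7), Itgb6 (4 and 2, with an interval that held 0) and Itga11 (11 and 0) were the other members lower. Itga1 stood at 145 CPM in Cont BECs and 45.8 CPM in OE-BECs, beside 42.2 and 44.6 CPM in the LEC libraries. Lama3 stood at 8.20 and 1.08 CPM in the BEC libraries and at 0.65 and 0.48 CPM in those of LECs. These comparisons share the Cont BEC library and are not independent.

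The wider pathway was read from 3 lists. Of 36 genes of the integrin adhesion machinery, the talins, kindlins, kinases and adaptors at the cytoplasmic tails, 0 were past the rule in the skin pair (median log2 ratio -0.12). In OE-BECs 35 reached the minimum and 1 was higher (Ptk2b, 3 and 14 reads, median of the list 0.08), beside 8.02% of all genes. In OE-LECs 0 of 35 were past the rule (0.15). Among the machinery genes with 10 or more reads, ratios were above 0 for 12 of 36 in skin. In OE-BECs this held for 22 of 35 and in OE-LECs for 23 of 34. Tln1, the talin that activates integrins, was past the rule in none of the pairs. It had 6932 and 10802 reads in skin (0.26), 16370 and 14664 in BECs (0.22) and 18260 and 25722 in LECs (0.26). Of 20 basement membrane partners of laminin, 0 were past the rule in skin, with a median of -0.42 and 3 of 20 above 0. In OE-BECs 2 of the 16 that reached the minimum were lower, beside 5.27% of all genes, with a median of -0.15. Npnt, nephronectin, had 1712 and 184 reads there (-2.84), and Col15a1 had 5 and 0. In OE-LECs 1 of the 16 was higher, beside 2.77%, and 1 lower, beside 2.09%, both with at most 4 reads in a library.

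Of 32 integrin ligands, 29 reached the minimum in the skin pair. Of the 29, 4 were higher past the rule in the library labelled cKO, beside 5.17% of all genes. None was lower, beside 2.41%, and the median was 0.04. Spp1, osteopontin, had 34 and 1121 reads (4.67), Tnc, tenascin-C, 1001 and 7338 (2.50), Thbs1, thrombospondin 1, 1504 and 9862 (2.34) and Ctgf 276 and 1356 (1.92). In OE-BECs 21 ligands reached the minimum. Of these, 5 were higher, beside 8.02% of all genes, and 4 lower, beside 5.27%, with a median of 0.39. Cyr61 (1174 and 3199 reads, 1.83) and Ctgf (961 and 2573, 1.80) were the higher ones with at least 50 reads, and Vwf (3606 and 610, -2.18) and Tgfbi (1900 and 209, -2.80) the lower ones. In OE-LECs 0 of 18 were higher, beside 2.77%, and 2 were lower, beside 2.09%. The lower ones were Vwf (824 and 260, -1.89) and Icam1 (14 and 4), and the median was -0.12. The shares are among all genes that reach the minimum, as given above for each pair.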

How the data were processed

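Total RNA of each condition was made into 1 RNA-seq library with ScriptSeq v2. The authors trimmed reads with skewer (v0.2.2), aligned them with STAR (v2.7.9a; mm10), assigned them to genes with VERSE (v0.1.5, option -S), and the deposited values are raw counts per gene symbol; the gene annotation and the strand setting are not given in the sources used here. Size factors were computed for each pair of libraries by the median of ratios with DESeq2 (v1.42.0). Each log2 ratio was given a 95% interval by the Clopper-Pearson method from its reads in the pair, and a normal-approximation interval was put on the difference of 2 ratios. Both cover counting error only, and the intervals narrow with depth. A library with 3 or fewer reads is at the floor: a fold against 0 reads is a lower bound against 3 reads, and none is given where both libraries are at or under it. Exon lengths and positions came from GENCODE M21 (basic protein-coding transcripts), which matched all 36 members. Of 37 symbols that fit the naming rule, 1 is not reported here and enters no count of members. Full values were given for members past the study's rule, for members past a log2 ratio of 1 with an interval free of 0 and at least 50 reads, and for those leading a role by level. Genes outside the members were named from the lists when past the rule with at least 50 reads in a changed-over-control pair. List genes past the rule between the control lines were not named. Tln1, Ptk2b, Col15a1, Icam1 and the single marker genes were named after their values were seen. The members and all gene lists were chosen with earlier results of these data known. The calculations were tested on simulated pairs that held counting error only, with large changes planted in genes with many reads. Recovery of calls near the 3-fold limit or on few reads was not tested. Alternatives were TMM factors (edgeR v4.0.16), total counts with and without Rn45s, size factors from all 6 libraries, other minimums, a 2-fold limit and a pseudocount of 1.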

Additional observations from a re-analysis of the deposited data

Results flagged for a closer look

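Itgb2, the common beta subunit of leukocyte integrins, had a log2 ratio of -0.90 in OE-BECs (114 and 47 reads) and 1.01 in OE-LECs (694 and 1642 reads), a difference of 1.91. It drew attention because the lines moved opposite ways beyond counting error, with a log2 ratio past 1 in size in at least 1 line. Itga6, Itgav, Itgb1, Itgb3, Lama5 and Lamb1 also moved opposite ways beyond counting error, but by less than 1 in each line. The difference was not tested, since each condition has 1 library.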

How the results depend on the processing

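The counts of members past the study's rule were small, and those in the skin pair and OE-LECs rest on few reads. In OE-BECs, 5 of the 9 members past the rule had a normalized count of at least 100 in the higher library. In the skin pair, the count higher in the library labelled cKO was 1 and became 2 with size factors from all 6 libraries, with no minimum or with a pseudocount of 1 (Itgad joined), and 3 with a 2-fold limit (Itgam and Itgb7 joined), where the count lower went from 0 to 2 (Itgb3 and Itgb6). In OE-BECs the count higher went from 1 to 2 with no minimum (Lamb3 joined) or with a 2-fold limit (Itgb7), and the count lower went from 8 to 5 with a minimum of 20 normalized counts, which leaves out Itgal, Itgb6 and Lamc3, and to 7 with total counts without Rn45s, which leaves out Itga1. In OE-LECs a 2-fold limit gave 3 higher (Itgb2 and Itgb4 joined Itgb7) and 3 lower (Itga8, Itgad and Lama1), and no minimum or a pseudocount of 1 gave 1 lower (Itgb6). Between the control lines, where alternatives were chosen after seeing the data, the count higher in Cont LECs went from 1 to 3 with a 2-fold limit (Itgb5 and Lama1 joined) or with no minimum (Itgam and Lamb3), and to 2 with a pseudocount of 1 (Lamb3), and the count lower ranged from 4 to 8 around 6. The other counts of members past the rule stayed within 1.5 times, and scaling by total counts shifted all log2 ratios by 0.06 in the skin pair, -0.04 in OE-BECs, -0.02 in OE-LECs and 0.10 between the control lines. Of 480 log2 ratios of single members recomputed in the changed-over-control pairs, 462 stayed within their counting interval, 18 did not and 0 reversed; 4 near 0 changed sign. No paired analysis was possible because each condition has 1 library, and leaving out a replicate was not possible for the same reason. Itgad, Itgb6 and Itga11 had intervals that held 0 in each changed-over-control pair with reads, so no difference was detectable at their depth.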
